A study of Mus musculus with 2 samples.

Results

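The 41 genes described here drive or mark the cell division cycle, from the D cyclins of early G1 to the motors and kinetochore proteins of mitosis. They were taken as a named set, and each was read from the probe sets whose annotation named that gene alone. Of the 41, 40 had such a probe set, and 39 gave a signal above the signal floor of 21.5, which is the median of all signals on both arrays. These 39 were among 12241 genes measured on at least 1 array, of 18193 genes named in all. Ccnb1, the gene of cyclin B1, was named alone by no probe set and is not analysed here. The 4 probe sets of Tyms, the gene of thymidylate synthase, lay below the floor on both arrays.

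RNA came from primary osteoblasts, the bone-forming cells, of the skull caps of 5-day-old C57BL/6 mice. One culture spent 6 h in serum-free medium with 4 mM phosphate, added as sodium phosphate, and the control culture spent the same time in serum-free medium with 1 mM phosphate, both at pH 7.2. Both had grown for 3 days in 10% serum to between 80 and 90% confluence and had then been kept without serum overnight, so the control cells too were deprived of serum. Each group was 1 array, so no test between conditions was possible, no p-value is given, and every difference describes these 2 arrays.

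A cell that leaves quiescence makes D cyclins, which with their kinases inactivate the retinoblastoma protein and free the E2F transcription factors. E2F raises the genes of DNA replication, and later in the cycle the genes of mitosis are raised through a separate promoter element, the cell cycle homology region (CHR), bound by the MuvB complex. Removal of serum withdraws the growth factors on which the D cyclins depend, and the genes of S phase and mitosis then follow the share of cells still dividing.

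The arrays held 22963 probe sets above the floor in 4 mM phosphate and 22074 in the control, of 45037. As a check on intact RNA, the 3′ end of actin read 1.43 times its 5′ end in phosphate and 1.36 times in the control, and that of Gapdh 0.769 times in phosphate and 0.748 times in the control. All 7 osteoblast markers with a probe set of their own were above the floor in both cultures, and Runx2, Bglap and Spp1 were not analysed here. Poly-A spikes, foreign RNAs put in ahead of labelling, read higher in phosphate on 24 of 24 probe sets, by a median log2 ratio of 0.46. Hybridisation spikes, the other spike controls of the array, also read higher in phosphate, on 18 of 18 probe sets, by a median of 0.23. They were not used as a reference. The signals are scaled to an equal average, so the ratios are relative to the other genes of the array. In bulk RNA, fewer cells of a type and less RNA per cell cannot be told apart.

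The promoters of some of these genes carry letters of the elements by which the cycle is timed. Shown here before the values are 6 promoters chosen because they have such a match. RefSeq promoter windows (build GRCm38.p6, from 250 bases before to 50 after the gene start, given 5′ to 3′ on the gene's strand) were held for 33 of the 41 genes, in 36 windows. Capitals mark E2F-type letters (TTTCCCGC, TTTCGCGC, TTTGCCGC or TTTGGCGC) and the CHR letters TTTGAA, on either strand; neighbouring capitals in Mcm5 and Mcm6 are overlapping E2F matches. Mcm6 and Mcm5 stand for the licensing genes, Cdk1 has both kinds of match, and Ccnb2, Top2a and Cdc20 stand for mitosis.
Mcm6, chr1:128359656-128359955, minus strand: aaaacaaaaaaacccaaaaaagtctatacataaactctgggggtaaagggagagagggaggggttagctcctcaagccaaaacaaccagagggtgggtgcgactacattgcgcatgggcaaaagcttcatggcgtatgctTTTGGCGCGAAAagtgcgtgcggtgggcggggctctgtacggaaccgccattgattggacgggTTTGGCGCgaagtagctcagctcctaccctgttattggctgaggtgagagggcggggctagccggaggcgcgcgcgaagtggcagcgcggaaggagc
Mcm5, chr8:75109259-75109558, plus strand: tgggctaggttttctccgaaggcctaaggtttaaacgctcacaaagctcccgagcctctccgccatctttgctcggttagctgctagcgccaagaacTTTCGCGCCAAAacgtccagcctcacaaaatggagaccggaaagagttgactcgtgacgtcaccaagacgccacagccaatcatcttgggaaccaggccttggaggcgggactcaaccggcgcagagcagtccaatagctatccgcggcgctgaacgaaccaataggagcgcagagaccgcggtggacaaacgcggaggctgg
Cdk1, chr10:69352863-69353162, minus strand: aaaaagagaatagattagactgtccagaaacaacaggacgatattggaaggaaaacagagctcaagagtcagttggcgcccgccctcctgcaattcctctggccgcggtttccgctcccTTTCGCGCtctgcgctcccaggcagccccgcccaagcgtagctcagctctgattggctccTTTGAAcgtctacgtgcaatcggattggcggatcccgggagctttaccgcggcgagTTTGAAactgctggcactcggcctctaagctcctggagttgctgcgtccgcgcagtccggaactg
Ccnb2, chr9:70421505-70421804, minus strand: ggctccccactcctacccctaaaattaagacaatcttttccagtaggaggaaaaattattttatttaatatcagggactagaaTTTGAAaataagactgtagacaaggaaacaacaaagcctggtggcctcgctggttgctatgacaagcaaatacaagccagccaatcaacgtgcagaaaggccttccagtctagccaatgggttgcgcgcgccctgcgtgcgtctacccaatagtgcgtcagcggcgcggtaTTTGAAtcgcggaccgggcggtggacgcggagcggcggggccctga
Top2a, chr11:99024140-99024439, minus strand: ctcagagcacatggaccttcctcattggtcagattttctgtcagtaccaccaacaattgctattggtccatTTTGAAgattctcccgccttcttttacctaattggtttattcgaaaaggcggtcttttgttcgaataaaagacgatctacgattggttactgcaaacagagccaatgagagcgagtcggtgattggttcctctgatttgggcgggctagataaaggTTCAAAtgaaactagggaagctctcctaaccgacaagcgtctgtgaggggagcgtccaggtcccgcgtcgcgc
Cdc20, chr4:118437294-118437593, minus strand: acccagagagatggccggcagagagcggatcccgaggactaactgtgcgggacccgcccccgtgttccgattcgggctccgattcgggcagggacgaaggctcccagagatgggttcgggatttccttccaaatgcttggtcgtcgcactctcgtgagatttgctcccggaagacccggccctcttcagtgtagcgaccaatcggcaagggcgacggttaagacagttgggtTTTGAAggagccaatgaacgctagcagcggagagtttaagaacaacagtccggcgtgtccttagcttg

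E2F-type letters were found in 5 of 8 windows of the licensing genes and Pcna (62.5%) and in 1 of 21 windows of the mitotic genes (4.76%), against 2.26% of all 32851 windows in the table. The CHR letters were found in 16 of 21 mitotic windows (76.2%) and in 1 of 8 licensing windows, that of Mcm2, against 17.9% of all windows. Neither kind was found in the 7 windows held for D and E cyclins, E2f1 and nucleotide supply. These were windows of Ccnd3, Ccne1, E2f1, Rrm1, Rrm2 and Tyms, and none was held for Ccnd1, Ccnd2 or Ccne2. A window covers 1 annotated start, so the lack of a match does not speak for other starts of a gene. Of the 36 windows of the set, 6 had E2F-type letters, 17 had CHR letters and 1 had both. CCAAT, the letters bound by NF-Y, was in 29 of 36 windows of the set (80.6%) and in 37.4% of all. Matches of different motifs overlapped at 2 places in the 36 windows. A match describes letters only, and the table of all windows includes genes that code for no protein.

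As a set the cell cycle genes lay slightly lower in 4 mM phosphate, with 1 large exception in G1. The median log2 ratio, phosphate minus control, was −0.19 over the 39 measured genes, against −0.06 over all 12241. Of the 39, 26 (66.7%) had a log2 ratio below 0, against 55.9% of all genes. The quartiles of the set were −0.35 and 0.03, and those of all genes −0.34 and 0.19. Nearly all of the set stayed close to the control: 37 of 39 lay within 1.5-fold, a band that held 80.6% of all genes. At 1.5-fold, 1 member was lower (Ccnd1) and 1 higher (Mcm2), where 12.1% of all genes were lower and 7.25% higher. No member reached 2-fold in either direction, and 2.92% of all genes were 2-fold lower and 2.28% 2-fold higher. Signal level was not matched between the set and all genes, of which more are dim. With the floor raised to a signal of 100, 35 of 37 members lay within 1.5-fold. Of the 8855 genes then measured, 8.31% were at least 1.5-fold lower and 5.32% higher.

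The scaling decides how far below 0 the set lies. With the poly-A spikes set to equal signal, all log2 ratios moved by −0.46, the median of all genes became −0.52 and that of the set −0.65. Every member other than Mcm2 was then below 0 (38 of 39), including those given below as above 0, as were 89.7% of all genes. At 1.5-fold, 22 members were lower and none higher, against 5279 lower and 252 higher among all genes. The gap between the set and all genes, −0.13, is the same under both scalings, and 24 of 39 members lay below the median of all genes under each.

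The only measure of error was technical, the spread of log2 ratios among probe sets of the same gene. Its standard deviation (SD) was 0.42 for genes whose dimmer signal was at most 100, 0.26 for those up to 400, and 0.16 for brighter ones. It does not cover differences between cultures. By this measure 16 of 39 members lay within 1 technical SD of 0, a share that was not computed for all genes. Beyond 2 technical SDs, 5 members were lower (Ccnd1, Rrm1, Rrm2, Ccnb2 and Mki67), against 13.4% of all genes, and 1 was higher (Mcm2), against 8.23%.

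**Figure D1:**
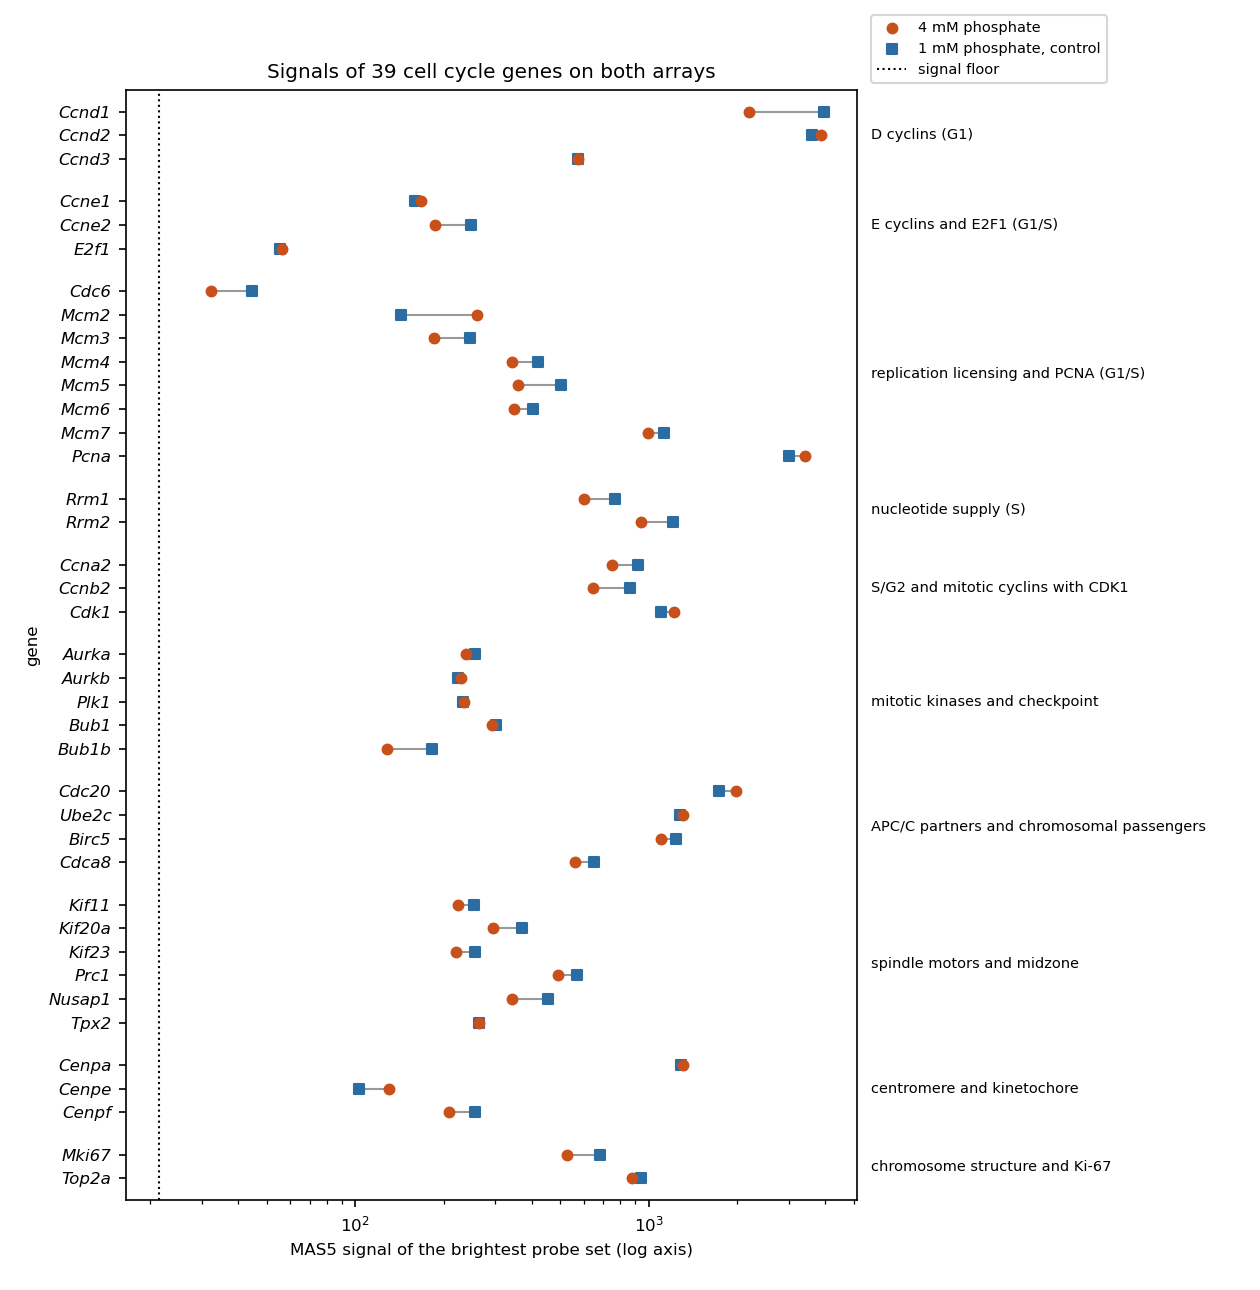
MAS5 signal (log axis) of the brightest probe set of each of the 39 measured genes on the 4 mM phosphate array (circles) and the 1 mM control array (squares), by role; lines join the 2 signals of a gene, the dotted line is the floor of 21.5, and there are no error bars because each group is 1 array. The widest gaps are those of Ccnd1 (2192 in phosphate, 3941 in control) and Mcm2 (259 in phosphate, 143 in control).

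Among the D cyclins, which start G1 progression with CDK4 and CDK6, only Ccnd1 differed by 1.5-fold. Its brightest probe set read 2192 in 4 mM phosphate and 3941 in the control, a log2 ratio of −0.85 with a technical SD of 0.16, or 1.80-fold lower. Its other probe sets read 1976 and 814 in phosphate, against 3841 and 1433 in the control. All 3 were lower in phosphate, with log2 ratios between −0.96 and −0.82. Ccnd1 was the only one of 26 members with several probe sets above the floor in both cultures for which all of them were at least 1.5-fold lower. How many of all genes meet this was not counted.

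Ccnd2, the second D cyclin, read 3875 in phosphate and 3607 in the control, a log2 ratio of 0.10. Its 7 probe sets ran from −0.33 to 0.11, with 3 below 0 and 4 above, so they give no direction. Ccnd3 read 575.5 in phosphate and 574.7 in the control, a ratio of 0.00 on the log2 scale. The 3 D cyclins thus did not share a ratio, and the probe sets of Ccnd1 did not overlap those of Ccnd2.

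The E cyclins carry the cell into S phase with CDK2. Ccne1 read 168 in phosphate and 160 in the control (log2 ratio 0.07), and its other probe set gave 0.25. Ccne2 read 186 in phosphate and 247 in the control, a log2 ratio of −0.41 on its single probe set, with a technical SD of 0.26. E2f1, the transcription factor that acts on replication genes, was dim at 56.4 in phosphate and 55.3 in the control. Its other probe set, at 34.4 in phosphate and 73.8 in the control, gave −1.10, so the probe sets of E2f1 disagree by more than the technical SD of 0.42 at this signal.

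The licensing genes load the replicative helicase, made of the products of Mcm2 to Mcm7, onto origins of replication. The 8 genes of this group had a median log2 ratio of −0.26, and 6 of them (75%) were below 0, against 55.9% of all genes. Mcm5 read 358 in phosphate and 504 in the control (−0.49), and Mcm3 read 186 in phosphate and 247 in the control (−0.41). The 4 probe sets of Mcm3 above the floor in both cultures ran from −0.72 to 0.04, with 3 below 0 and 1 above. Mcm4, Mcm6 and Mcm7 had log2 ratios of −0.29, −0.22 and −0.19. Their differences were small. Across the 6 helicase genes 14 of 16 probe sets with 2 signals above the floor were below 0, with a median of −0.29. Among all such probe sets naming 1 gene, 54.1% were below 0. The 16 probe sets read the same 6 genes on the same 2 arrays, so they are not independent readings.

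Mcm2 was the exception and its probe sets contradict each other. The brighter one read 259 in phosphate and 143 in the control (0.86), and the other 114 in phosphate and 138 in the control (−0.28). No direction can be given for Mcm2. Cdc6, which recruits the helicase to origins, was dim at 32.3 in phosphate and 44.5 in the control (−0.46, technical SD 0.42). Pcna, the sliding clamp of the DNA polymerases, read 3412 in phosphate and 3015 in the control, a log2 ratio of 0.18 and one of the few in S phase above 0.

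Ribonucleotide reductase, which makes deoxynucleotides for replication, was lower in phosphate on every probe set above the floor. Rrm2, its small subunit, read 942, 502 and 252 in phosphate, against 1208, 638 and 312 in the control, with log2 ratios from −0.36 to −0.30. Rrm1, the large subunit, read 601 and 162 in phosphate, against 765 and 226 in the control, with log2 ratios of −0.35 and −0.48. All 5 probe sets had the same sign, and the differences were 1.39-fold or less. For Tyms a probe set that also names a pseudogene, Tyms-ps, read 411 in phosphate and 474 in the control.

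**Figure D2:**
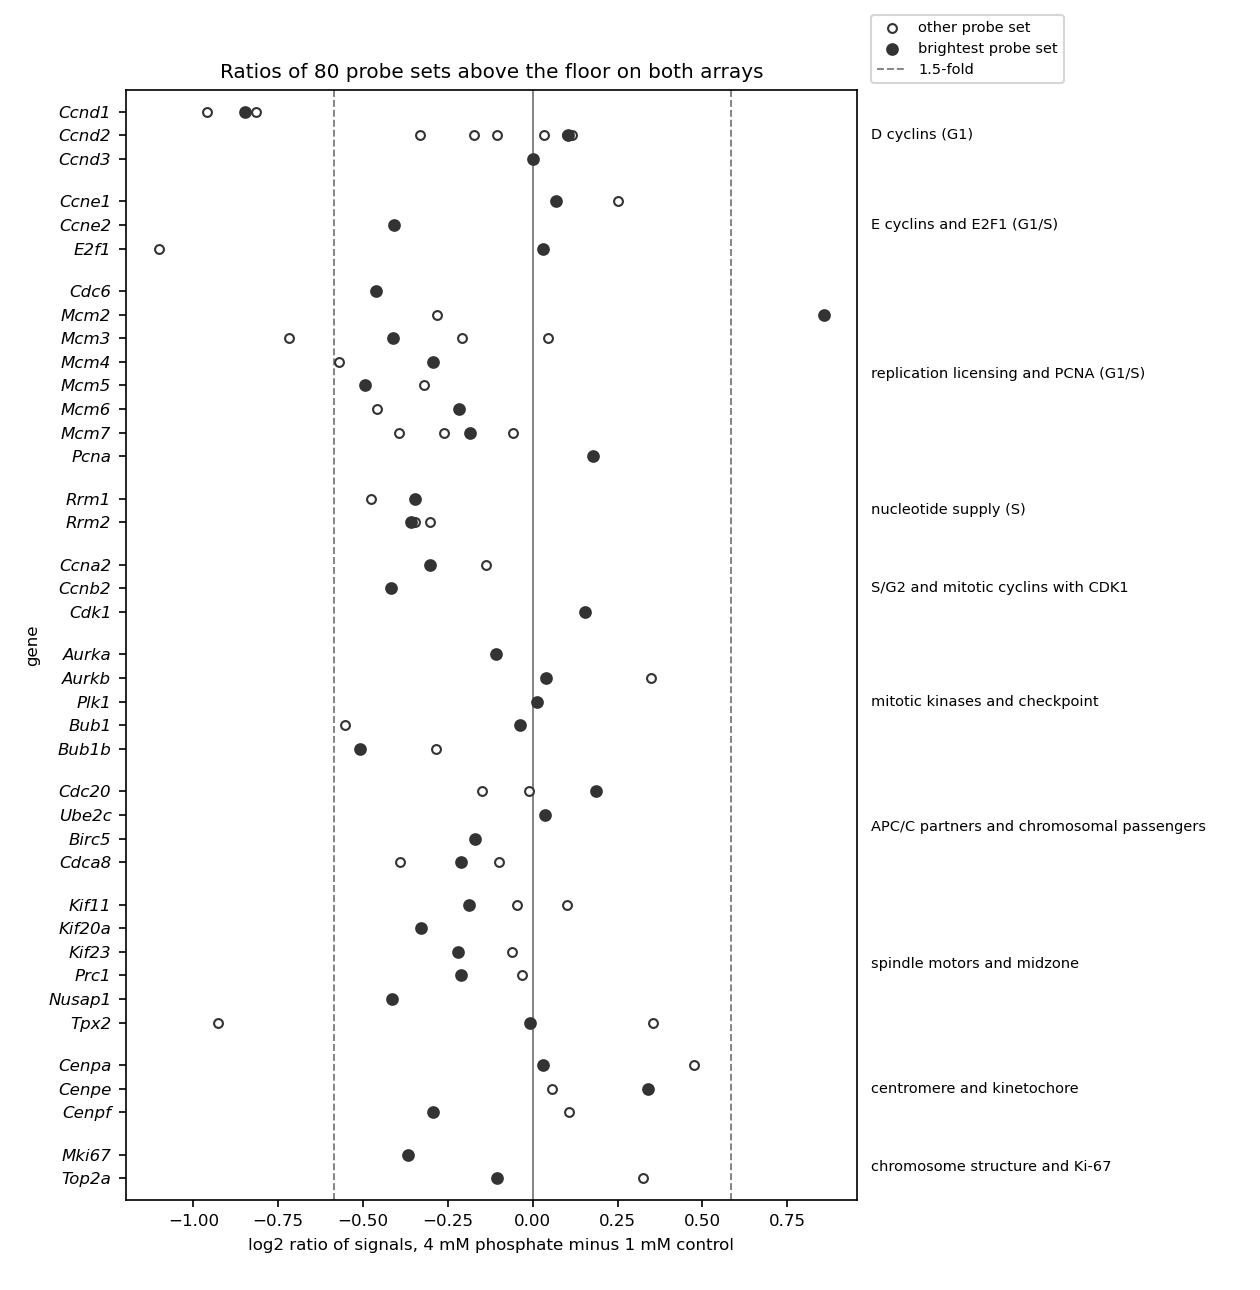
Log2 ratio (4 mM phosphate minus 1 mM control) of the 80 probe sets with both signals above the floor, by gene and role; filled points are the brightest probe set of a gene, open points the others, and dashed lines mark 1.5-fold. The 3 probe sets of Ccnd1 lie between −0.96 and −0.82, and the 2 of Mcm2 lie on opposite sides of 0.

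Of the 23 measured genes that act from S/G2 to the end of mitosis, 16 (69.6%) were below 0, against 55.9% of all genes. All 23 lay within 1.5-fold, a band that held 80.6% of all genes, and their median log2 ratio was −0.17. Ccnb2, the gene of cyclin B2, was among the lower ones at 645 in phosphate and 862 in the control (−0.42, technical SD 0.16). Ccna2, the cyclin of S phase and G2, read 747 in phosphate and 921 in the control (−0.30), with −0.14 on its other probe set. Cdk1, the kinase both act with, read 1223 in phosphate and 1099 in the control (0.15). The cyclins and their kinase therefore lay on different sides of 0.

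Of the mitotic kinases and checkpoint genes, 3 of 5 were below 0 (60%, against 55.9% of all genes), with a median of −0.04. Aurka, Aurkb and Plk1, which act at the spindle poles, the centromere and throughout mitotic entry, had log2 ratios of −0.11, 0.04 and 0.01. The second probe set of Aurkb read 145 in phosphate and 114 in the control (0.35, technical SD 0.26). Bub1, a kinase of the spindle checkpoint, was at −0.04, and −0.55 on a dimmer probe set. Bub1b, which encodes the checkpoint protein BubR1, read 129 in phosphate and 183 in the control (−0.51, technical SD 0.26), and 127 in phosphate and 155 in the control on its second probe set (−0.29). It was the lowest of the mitotic genes.

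Cdc20 and Ube2c act with the anaphase-promoting complex, which ends mitosis by destroying cyclin B. Cdc20 read 1976 in phosphate and 1737 in the control (0.19), while its other probe sets gave −0.01 and −0.15. Ube2c read 1309 in phosphate and 1276 in the control (0.04). Birc5 (survivin) and Cdca8 (borealin), which hold Aurora B at the centromere, were at −0.17 and −0.21, and the 3 probe sets of Cdca8 were all below 0.

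The genes of spindle motors and of the midzone, where the cell is later cut, lay below 0 on the brightest probe set of each. This was 6 of 6 genes, against 55.9% of all genes, and 2 of the 6 had other probe sets above 0. The 6 had a median of −0.22 and ran from −0.41 to −0.01. Nusap1, a microtubule-binding spindle protein, read 341 in phosphate and 455 in the control (−0.41), and Kif20a, a kinesin of the midzone, 294 in phosphate and 370 in the control (−0.33). Kif23 and Prc1 were at −0.22 and −0.21, with −0.06 and −0.03 on their second probe sets. Kif11, the motor that pushes the spindle poles apart, was at −0.19, and its other probe sets gave 0.10 and −0.05, so its sign depends on the probe set. Tpx2, an activator of Aurora A, had −0.01 on the brightest of its probe sets and −0.93 and 0.35 on dimmer ones, so its sign does too.

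The centromere genes varied in direction. Cenpe, a kinetochore motor, read 130 in phosphate and 103 in the control (0.34), and was above 0 on its other probe set too (0.06). Cenpf read 208 in phosphate and 255 in the control (−0.29), with 0.11 on a dim probe set. Cenpa, the histone H3 variant of the centromere, was at 0.03, with 0.48 on a dim probe set. Mki67, the gene of the proliferation antigen Ki-67, read 528 in phosphate and 682 in the control, a log2 ratio of −0.37 with a technical SD of 0.16. Top2a, the topoisomerase that untangles sister chromatids, read 875 in phosphate and 941 in the control (−0.11), while a dim probe set at 34.9 in phosphate and 27.8 in the control gave 0.32.

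Of 99 probe sets of these genes, 80 had both signals above the floor, and 55 of the 80 (68.8%) were below 0. Of the 26 members with several such probe sets, 13 had all of them below 0, 4 had all above 0 and 9 had both signs. Genes with E2F-type letters in a promoter window had a median log2 ratio of −0.32 (6 genes, 5 below 0), against −0.11 for those without (25 genes, 15 below 0). With the CHR letters the median was −0.15 (16 genes, 10 below 0), and without them −0.19 (15 genes, 10 below 0). Of all measured genes, 55.9% were below 0. No test was made of either difference, and the first rests on 6 genes with a match.

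Other genes of the cell cycle were read from 7 further lists, with 86 of 89 genes measured. Their median log2 ratio was −0.06, equal to that of all genes, with 6 at least 1.5-fold higher (6.98%, against 7.25% of all genes) and 3 lower (3.49%, against 12.1%). The 15 kinetochore and checkpoint genes had a median of −0.19 and 12 were below 0 (80%, against 55.9% of all genes). The lowest were Cenph (−0.71) and Cenpk (−0.54). Zwint, which encodes a kinetochore protein, was highest at 0.44, read from the brightest of its probe sets, and 4 other probe sets with both signals above the floor were higher still, from 0.74 to 1.44. Sgol1, the gene of shugoshin, which guards sister chromatid cohesion, followed at 0.38, with 0.20 on its second probe set. The 10 genes of the G2/M switch had a median of −0.14, with 8 below 0 (80%, against 55.9% of all genes). Wee1, the kinase that holds back CDK1, read 112 in phosphate and 176 in the control (−0.65), although its dimmer probe set gave 0.17. Anapc1, a subunit of the anaphase-promoting complex, was at −0.55, with probe sets from −1.04 to 0.13. Cdc25b and Ccnf, a phosphatase that activates CDK1 and cyclin F, were highest at 0.23 and 0.03.

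The 15 measured genes of origin firing had a median of −0.13. Orc5, a subunit of the origin recognition complex, read 104 in phosphate and 198 in the control (−0.93) on its single probe set, and Orc3 was at −0.57. Cdt1, which loads the helicase together with Cdc6, was at 0.41 and Dbf4, the activator of the CDC7 kinase, at 0.38. Members of this list thus lay far apart on both sides of 0.

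The 17 measured pocket protein, E2F and MuvB genes had a median of 0.12. The repressor genes E2f8 and E2f7 were at 0.60 and 0.44, E2f8 with 124 in phosphate and 81.7 in the control. Foxm1, a factor of mitotic genes, was dim, with a control signal of 27.3, and gave 0.59, and 0.13 on a second probe set. Rbl1 and Rbl2, which encode the retinoblastoma relatives p107 and p130, were lowest at −0.41 and −0.26.

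The G1 kinase list had a median of 0.06. Cdk6 read 392 in phosphate and 242 in the control (0.70), with 0.24 on its second probe set, and Cdk4, the other partner of the D cyclins, was at −0.17. Cdk2, the kinase of the E cyclins, read 316 in phosphate and 233 in the control (0.44). Fbxw7, which marks cyclin E for destruction, was lowest at −0.38, followed by Cdk7, a kinase that activates other CDKs, at −0.32, with all 5 of its probe sets below 0 and the lowest at −0.86. The 8 genes listed as CDK inhibitors had a median of −0.18. None reached 1.5-fold, where 12.1% of all genes were lower and 7.25% higher. Cdkn2b (p15) and Cdkn2d (p19) were highest at 0.39 and 0.33, and Cdkn3 and Cdkn1c (p57) lowest at −0.58 and −0.50. Cdkn1a (p21) read 3760 in phosphate and 3074 in the control (0.29).

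Among 11 measured quiescence and antiproliferative genes, 3 were at least 1.5-fold higher in 4 mM phosphate (27.3%, against 7.25% of all genes). None was lower, against 12.1% of all genes, and the median was 0.13. The list was chosen with earlier results of these data known, so these shares describe it and are no independent support for a rise. Btg2, an antiproliferative gene that is also an early response gene, read 355 and 203 in phosphate on its 2 probe sets, against 200 and 106 in the control (0.83 and 0.94). Btg1, of the same family, read 4684 in phosphate and 2807 in the control (0.74), with 0.25 on its second probe set. Ccng2, a cyclin abundant in resting cells, read 1520 in phosphate and 936 in the control (0.70), with 0.13 on its second probe set. Of the 3, only Btg2 passed 1.5-fold on each probe set. Gas6 and Gas2, genes first found as raised in growth-arrested cells, were lowest at −0.36 and −0.33.

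**Figure D3:**
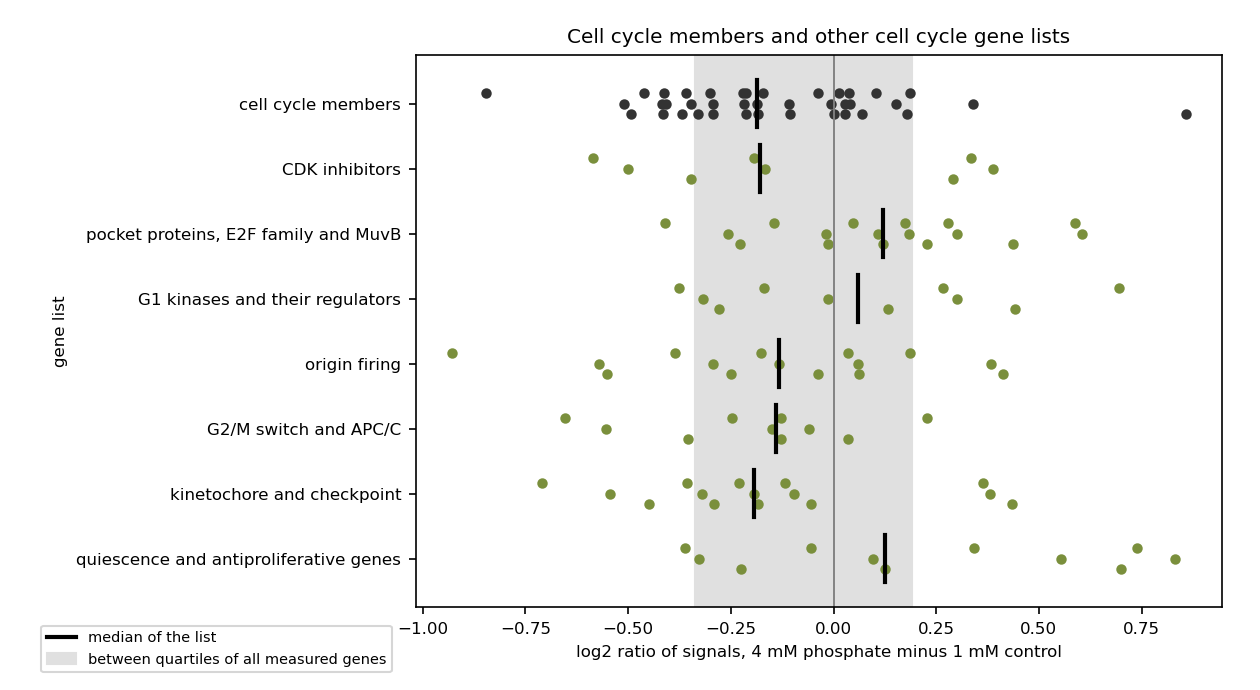
Log2 ratios (4 mM phosphate minus 1 mM control) of the 39 measured cell cycle members and of 7 other lists, 1 point per gene from its brightest probe set; points are spread up and down only to separate them, bars are list medians and the grey band runs between the quartiles of all measured genes, −0.34 and 0.19. The members' median is −0.19 and that of the quiescence list 0.13; members and lists were chosen with earlier results of these data known.

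Markers of other cells that can divide in such cultures were read beside these values. Macrophage and osteoclast markers were above the floor in both cultures for 13 of 13 genes, from 35.6 to 7745 in phosphate and from 62.0 to 7895 in the control, with sums of 17929 in phosphate and 19827 in the control. Of these, 12 (92.3%) were lower in phosphate, against 55.9% of all genes, and the median log2 ratio was −0.54. At 1.5-fold, 4 of the 13 (30.8%) were lower, against 12.1% of all genes, and 0 were higher, against 7.25%. The 4 were Aif1 (−0.80), Mrc1 (−0.79), Ptprc (−0.68) and Cd68 (−0.66). The list was not uniform. Csf1r was at −0.56, with 0.15 on the dimmest of its 3 probe sets, and Adgre1 at −0.55. Lyz2 and Ctsk, the brightest on the list, were at −0.03 and 0.10, and Tyrobp at −0.17. Chondrocyte markers had a median of 0.04 over 6 of 6 genes, with sums of 16236 in phosphate and 16597 in the control. All 6 endothelial markers lay below the floor on both arrays, and of 6 skeletal muscle markers the 4 measured were at 55.9 or less. The part of macrophages in the ratios of the cell cycle genes was not tested.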

How the data were processed

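Signals of 2 Affymetrix mouse arrays, 1 for 4 mM phosphate and 1 for the control, were used as deposited. They are intensity values on a linear scale made with MAS5 in GCOS 1.4, per the submitters' processing notes, and their mean without the lowest and highest 2% was 200.00 on both arrays. Other steps are not given in the sources used here. Of 45101 probe sets, 64 controls were set aside, and 34945 of the rest named 1 gene in the probe annotation, 932 several and 9160 none. Symbols were checked by Entrez identifier against RefSeq genes of GRCm38.p6 (34741 found, 0 changed). Groups came from the sample labels.

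Signals below the pooled median (21.5) were set to that floor before log2 ratios, phosphate minus control, were computed. A gene was measured if its brightest probe set, by mean log2 signal, was above the floor on at least 1 array. Genes were counted at 1.5-fold and 2-fold. Depth has no counterpart on arrays, and their number limits the precision. The functions were tested on simulated arrays (Python 3.11.15, numpy 2.4.6, pandas 2.3.3). Any of the 41 members could be named. Of each other cell cycle list, the rule took any gene at least 1.5-fold different and, where both signals passed the floor, the 2 highest and 2 lowest. E2f7, Cdk4, Cdkn1a and the macrophage markers named were chosen after their values were seen. Members and lists were chosen with earlier results of these data known. There were 11 alternatives for floor, scaling, probe set and members.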

Additional observations from a re-analysis of the deposited data

How the results depend on the processing

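With 1 array per group no replicate could be left out. No paired analysis was possible because each group is 1 array. The set's median of −0.19 lay between −0.20 and −0.15 under 10 of 11 alternatives and was −0.65 with the poly-A spikes as reference. The same reference gave 22 members at least 1.5-fold lower, 1 at least 2-fold lower (Ccnd1, −1.31) and 0 at least 1.5-fold higher. The count of 1 member at least 1.5-fold higher, Mcm2, became 0 with the median of a gene's probe sets and 0 without probe sets that match several transcripts, where Mcm2 was −0.28. The 37 members within 1.5-fold, a count varied after seeing the data, became 17 with the poly-A spikes. Under the other alternatives this count, and under all 11 that of members below 0, stayed within 1.5 times of the one reported. Counts for the other lists were not recomputed. Of 424 values for single genes, 376 moved by less than the technical SD and 48 by more, 39 of these with the poly-A spikes. All 39 members were above the floor on both arrays. Removing or lowering the floor, or keeping only such members, could therefore not move a gene's value. Raising the floor left out dim members and changed no other value. Many of the 376 come from these settings and are no measure of stability, and the range of the median draws on these settings too. Among 39 genes, 22 were below 0 under all 11 alternatives, none was above 0 under all and 17 took both signs, 12 of them turning from above to below 0 with the poly-A spikes. Of the members that differed by 1.5-fold, Mcm2 changed sign and Ccnd1 did not. Among all genes, those at least 1.5-fold higher numbered 887 with the floor used, 1580 when it was lowered to the 35th percentile, 538 at the 65th and 471 at a signal of 100, and those lower 1486, 1952, 912 and 736, against 252 higher and 5279 lower with the poly-A spikes. Dim signals, such as those of Cdc6, E2f1 and Foxm1, have the widest technical spread, and no alternative replaces replicate cultures.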
